A study of Mus musculus with 6 samples.

Results

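The iron-handling genes described here are 10 genes named for iron uptake, storage, export and recycling: Tfrc, Slc11a2, Cybrd1, Heph, Slc40a1, Fth1, Ftl1, Ncoa4, Ireb2 and Hmox1. They were chosen by symbol, and all 10 are among the 27202 genes listed for the series. All 10 were also among the 16246 genes tested, those averaging 10 or more normalized counts across libraries. RNA was sequenced from 6 colon samples, 3 from Nedd4l fl/fl VillinCre mice (cKO) and 3 from Nedd4l fl/fl littermates (WT). Both genotypes carry the floxed Nedd4l alleles, both were 8 to 10 weeks old, and both had taken 2% dextran sulfate sodium (DSS), a polymer that injures the colonic epithelium, in drinking water before collection on day 7. Nedd4l encodes a ubiquitin ligase. The Villin promoter drives Cre in intestinal epithelial cells, while the RNA came from whole colon tissue, so other cells keep an intact Nedd4l gene. Nedd4l, the targeted gene, stood at 476, 942 and 566 normalized counts in cKO libraries 1, 2 and 3 and at 1241, 1271 and 1266 in WT libraries 1, 2 and 3. The 3 cKO values lay below the 3 WT values, with the second cKO library nearest to WT. No water-only mice were analysed here, so the comparison is between genotypes during DSS injury.

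Iron enters most cells bound to transferrin through the transferrin receptor, and leaves the endosome through the divalent metal transporter DMT1. Iron that is not used is held in ferritin shells, freed from them when ferritin is carried to the lysosome, or exported by ferroportin, the only known cellular iron exporter of mammals. A pair of iron regulatory proteins tie these steps together. In iron-poor cells they bind a hairpin called the iron-responsive element (IRE), which blocks translation where it lies in the 5′ UTR, as in the ferritin and ferroportin mRNAs, and protects the mRNA from decay where it lies in the 3′ UTR, as in the transferrin receptor mRNA. Ferritin control through a 5′ IRE is therefore not visible in mRNA levels, whereas control through a 3′ IRE can be. In the gut, duodenal enterocytes take up dietary iron through a surface ferric reductase and DMT1, and pass it to blood through ferroportin and the ferroxidase hephaestin. Macrophages recycle heme iron with heme oxygenase 1 and ferroportin.

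Hairpins with an IRE pattern were located in the members first, because an IRE marks whether an mRNA can answer to the iron regulatory proteins by level or by translation. The annotated UTRs of GENCODE M21 transcripts (mouse build GRCm38) were searched on the transcript strand for a bulged C, 5 stem bases, a CAGTG loop start and 1 further loop base, with at least 4 of 5 stem pairs. A G-U pair (G with T in these letters) counted as a stem pair. The hairpins are written 5′ to 3′ with the 6-base loop in capitals and the 2 stem arms on either side of it. The first 3 lie in 5′ UTRs, of Fth1 (chr19:9982732-9982760, plus strand), Ftl1 (chr7:45459779-45459807, minus strand) and Slc40a1 (chr1:45925465-45925493, minus strand).
Fth1 5′ UTR: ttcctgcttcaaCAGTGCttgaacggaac
Ftl1 5′ UTR: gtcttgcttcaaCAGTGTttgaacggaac
Slc40a1 5′ UTR: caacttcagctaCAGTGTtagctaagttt
The next 5 lie in 3′ UTRs, 1 of Slc11a2 (chr15:100395153-100395181, minus strand) and 4 of Tfrc (chr16:32631219-32631247, 32631598-32631626, 32631663-32631691 and 32631710-32631738, plus strand).
Slc11a2 3′ UTR: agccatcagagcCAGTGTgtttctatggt
Tfrc 3′ UTR site 1: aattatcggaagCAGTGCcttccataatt
Tfrc 3′ UTR site 2: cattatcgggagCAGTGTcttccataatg
Tfrc 3′ UTR site 3: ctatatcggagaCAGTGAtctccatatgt
Tfrc 3′ UTR site 4: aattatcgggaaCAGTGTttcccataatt

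The Slc11a2 hairpin had 4 of 5 stem pairs and the other 7 had all 5. G-U pairs are among those counted in the Slc11a2 hairpin and in a Tfrc site. An IRE whose loop does not start with CAGTG would be missed, so the sites listed for a gene, Tfrc included, need not be complete. No match was found in the annotated UTRs of Cybrd1, Heph, Ncoa4, Ireb2 or Hmox1, which says only that these letters are not there. At 4 of 5 pairs the same search matched a 5′ UTR in 205 of 20696 genes (0.991%) and a 3′ UTR in 872 of 20969 (4.16%), and at 5 of 5 pairs in 31 (0.15%) and 129 (0.615%). The site was carried by 1 of 3 coding transcripts of Tfrc, 1 of 6 of Slc11a2, 1 of 4 of Slc40a1, 4 of 5 of Fth1 and 1 of 2 of Ftl1. The deposited values are per gene, so transcripts with and without an IRE could not be told apart.

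Depth was even. Each value in a library is a whole multiple, within 0.02, of a fixed step of between 0.90 and 1.11 normalized counts, and the library totals came to 14914367 to 17547270 such steps. Labels do not say whether a library is 1 mouse or a pool, so p-values measure the spread between these samples. The 12 epithelial markers summed to 269403 to 331449 normalized counts in cKO and 302092 to 330786 in WT, with Epcam at 20973 or more in every library. The 7 listed small-intestinal markers summed to 2842 to 3809 in cKO and 3371 to 3805 in WT, mostly Slc5a1 (2267 to 2836), a glucose transporter, with Fabp2 at 218 to 671 and Apoa4 and Lct near 0 (at most 1.11 and 4.42). Over all tested genes, cKO library 2 correlated better with the WT libraries (mean r 0.977) than with the other cKO libraries (0.966), while each of the other 5 libraries correlated better with its own genotype. Values without cKO library 2 are therefore given beside several of the results. Leaving out the cKO library most like WT can be expected to widen genotype differences, so these values are no independent check of them. Across all genes, limma found no gene at an adjusted p below 0.05 in either direction (0% higher, 0% lower, 0% in either, smallest adjusted p 0.111), with 1122 genes higher and 1151 lower in cKO at an unadjusted p below 0.05 (6.91% and 7.08%, together 14%). In 1706 genes (10.5%) every cKO library lay above every WT library, and in 1767 (10.9%) every one lay below, together 21.4%. In bulk tissue, fewer cells of a type and less RNA per cell cannot be told apart.

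Of the 10 iron genes, none passed an adjusted p of 0.05 by limma, against 0% of all genes. At an unadjusted p below 0.05, 1 gene was higher in cKO (Slc40a1, 10% of the members beside 6.91% of all genes) and 0 were lower (beside 7.08%). Slc40a1 and Heph, the export pair, were the 2 members whose genotypes did not overlap. Both were higher in cKO (20% of the members beside 10.5%), and 0 members were lower without overlap (beside 10.9%). Counted in either direction, the 20% of members stood beside 21.4% of all genes, so the share was near that of all genes. The estimate was above 0 for 8 members and below 0 for 2, beside 8160 genes above and 8086 below among all tested. The median log2 fold change was 0.12 beside 0.0013 for all genes tested. Of the estimates above 0, those of Fth1 (0.07), Ncoa4 (0.06) and Ireb2 (0.09) were smaller than their SEs.

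**Figure D1:**
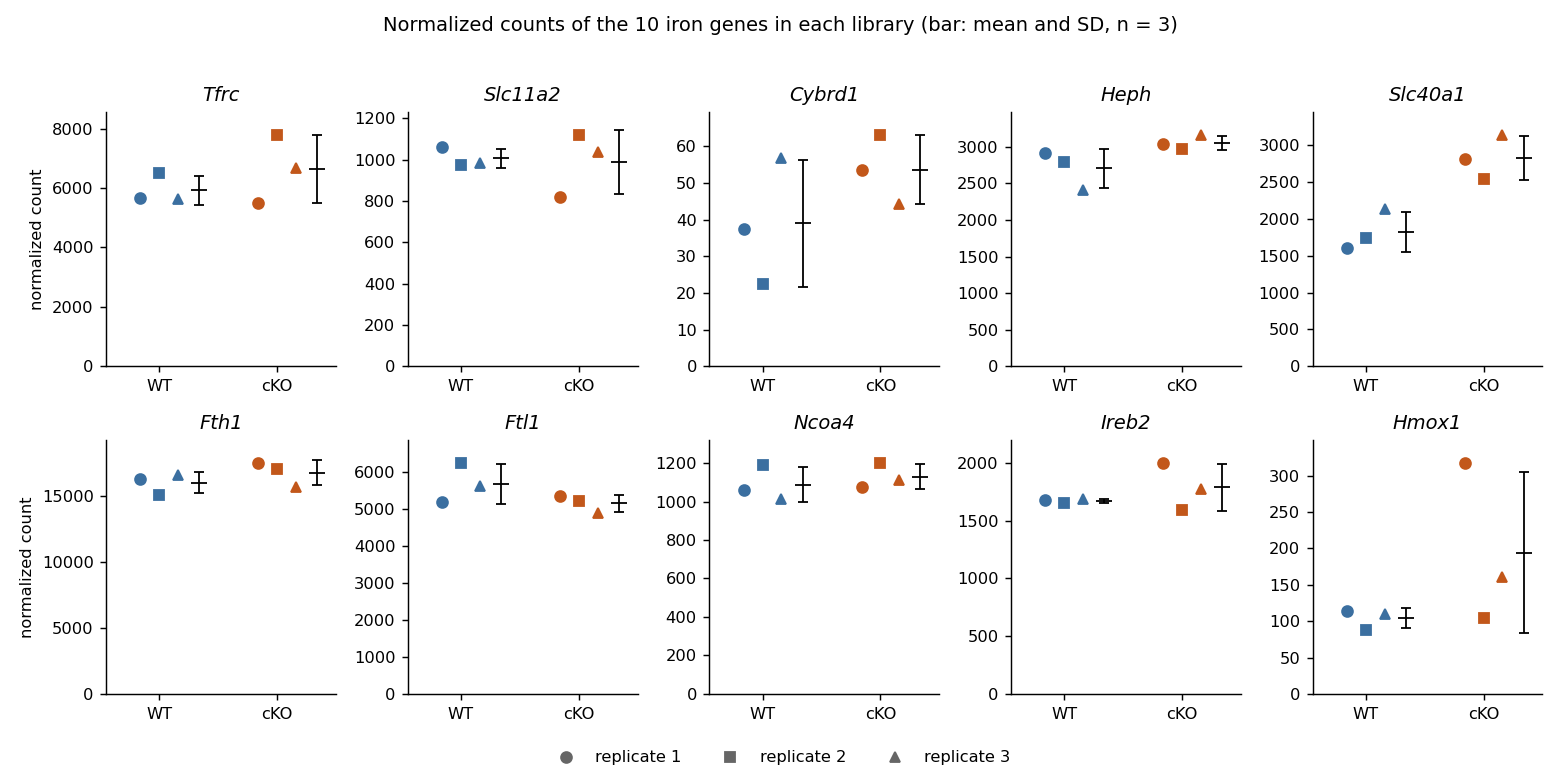
Normalized counts (vertical axes from 0) of the 10 iron genes in each WT and cKO library, with the mean and SD of 3 libraries; symbols mark replicate numbers. Slc40a1 and Heph are the panels in which the groups separate, and Hmox1 shows 1 high cKO library at 317.

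In level per kilobase of listed gene length, the only scale here on which genes can be set against each other, storage led. The listed length is a single value per gene, from 866 bases for Fth1 to 9479 for Ireb2, whichever transcripts are expressed. Where it exceeds the length of the expressed transcripts, the level per kilobase comes out too low. Fth1, the ferritin heavy chain with ferroxidase activity, averaged 18922 normalized counts per kilobase over the 6 libraries. Ftl1, the light chain that helps mineral form in the shell, averaged 4044 and Tfrc 1016. Heph followed at 376, Slc40a1 at 259, Ireb2 at 183, Slc11a2 at 157, Ncoa4 at 118, Hmox1 at 85.2 and Cybrd1 at 8.68. The library ranges of the neighbours Heph and Slc40a1, Slc40a1 and Ireb2, Ireb2 and Slc11a2, and Ncoa4 and Hmox1 overlapped, while every other neighbouring pair was separate in its range. Within a library, Heph stood above Slc40a1 and Slc40a1 above Ireb2 in 6 of 6 libraries, and Ireb2 stood above Slc11a2 and Ncoa4 above Hmox1 in 5 of 6. Cybrd1, the duodenal ferric reductase, thus stood lowest of the 10 in this colon tissue.

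Tfrc, the transferrin receptor that brings in transferrin-bound iron (ENSMUSG00000022797, chr16:32608920-32632794, plus strand), stood at 5486, 7775 and 6665 normalized counts in cKO libraries 1 to 3 and at 5654, 6495 and 5626 in WT libraries 1 to 3. The lowest cKO value lay under all WT values and the other 2 cKO values lay above them, so the groups overlapped. The log2 fold change was 0.15 (SE 0.13, 95% confidence interval −0.15 to 0.46, adjusted p = 0.61, limma). The interval thus leaves room for a Tfrc level somewhat lower or moderately higher in cKO. Without cKO library 2, which had the highest Tfrc value, the log2 fold change was 0.033.

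Slc11a2 (ENSMUSG00000023030, chr15:100387898-100425072, minus strand), which encodes DMT1, stood at 819, 1118 and 1036 normalized counts in cKO and at 1059.7, 975 and 983 in WT. The WT values fell inside the cKO range. The log2 fold change was −0.03 (SE 0.12, interval −0.32 to 0.25, adjusted p = 0.917, limma), and its sign changed with the library weights or with the library left out. Cybrd1 (ENSMUSG00000027015, chr2:71117923-71142926, plus strand) stood at 53.7, 63.0 and 44.4 in cKO and at 37.5, 22.5 and 56.9 in WT. These few counts overlapped between groups, and the wide interval shows their limited precision (log2 fold change 0.53, SE 0.36, interval −0.29 to 1.36, adjusted p = 0.517, limma).

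Slc40a1, which encodes ferroportin (ENSMUSG00000025993, chr1:45908068-45926523, minus strand), stood at 2820.1, 2537 and 3135 normalized counts in cKO libraries 1 to 3 and at 1609.7, 1741 and 2129 in WT libraries 1 to 3. Every cKO library lay above every WT library, and the mean was 2831 ± 299 in cKO against 1826 ± 270.0 in WT (SD, n = 3 each). The level was 1.55-fold higher in cKO (log2 fold change 0.64, SE 0.13, interval 0.35 to 0.93, unadjusted p = 0.000967, adjusted p = 0.169, limma), which placed the gene 88th of the 16246 by p and did not pass the adjusted threshold. Without cKO library 2 it was 0.71 (adjusted p = 0.0602, limma). The estimate stayed between 0.55 and 0.75 in every alternative run, and the adjusted p ranged from 0.0212, with array weights, which weight each library by its own spread, to 0.5, without cKO library 3.

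Heph, which encodes hephaestin, the membrane ferroxidase that works beside ferroportin (ENSMUSG00000031209, chrX:96455359-96574485, plus strand), stood at 3036, 2973 and 3157 in cKO and at 2916, 2799 and 2406 in WT. The groups did not overlap, but the lowest cKO and the highest WT value were close together. The log2 fold change was 0.18 (1.13-fold, SE 0.09, interval −0.03 to 0.39, adjusted p = 0.412, limma), a smaller estimate than that of Slc40a1. It rested in part on WT library 3, without which it was 0.096, and it was 0.20 without cKO library 2.

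Macrophages also express ferroportin. Each of the 10 macrophage markers tested had an estimate above 0, none at an adjusted p below 0.05 by limma and 2 at an unadjusted p below 0.05 (20%, beside 6.91% of all genes), with a median log2 fold change of 0.36. The genotypes did not overlap in 1 of the 10 (10%, beside 10.5%). Their summed level was 9299 to 11805 normalized counts in cKO and 5504 to 10017 in WT, so the sums overlapped, and none of the listed markers was at 0 in all libraries. The marker without overlap, Lyz2, a lysozyme gene of myeloid cells, was at 5467, 5829.6 and 4727 in cKO and at 4254, 2795 and 4081 in WT. It was the largest part of the sum in every library. The estimates ran from 0.03 (Mrc1), 0.10 (Csf1r) and 0.16 (Adgre1) to 0.81 (Itgam). WT library 1 had the highest macrophage sum of the WT libraries (10017, above cKO libraries 1 and 3) and the lowest Slc40a1 level of all (1609.7). The part of macrophages in the Slc40a1 difference was not tested beyond these values.

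Of 9 smooth muscle and fibroblast markers tested, 4 had estimates above 0 and 5 below, with 2 higher at an unadjusted p below 0.05 (22.2%, beside 6.91%) and none at an adjusted p below 0.05 by limma. Those 2 were the collagen genes Col1a1, at 7907, 3461 and 4009 normalized counts in cKO and 2452, 1862 and 2254 in WT, and Col1a2 (1.97-fold), while the 5 smooth muscle genes had estimates below 0. Of 6 endothelial markers, 5 had estimates above 0, with 1 (Vwf, 1.41-fold) at an unadjusted p below 0.05 (16.7%) and a median log2 fold change of 0.55. Summed levels were 17231 to 27308 in cKO and 11472 to 22506 in WT for the smooth muscle and fibroblast list, and 2137 to 3549 and 1468 to 2178 for the endothelial list. Both sums overlapped, and no listed marker was at 0 throughout. The part of these cells in the iron gene values was not tested.

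**Figure D2:**
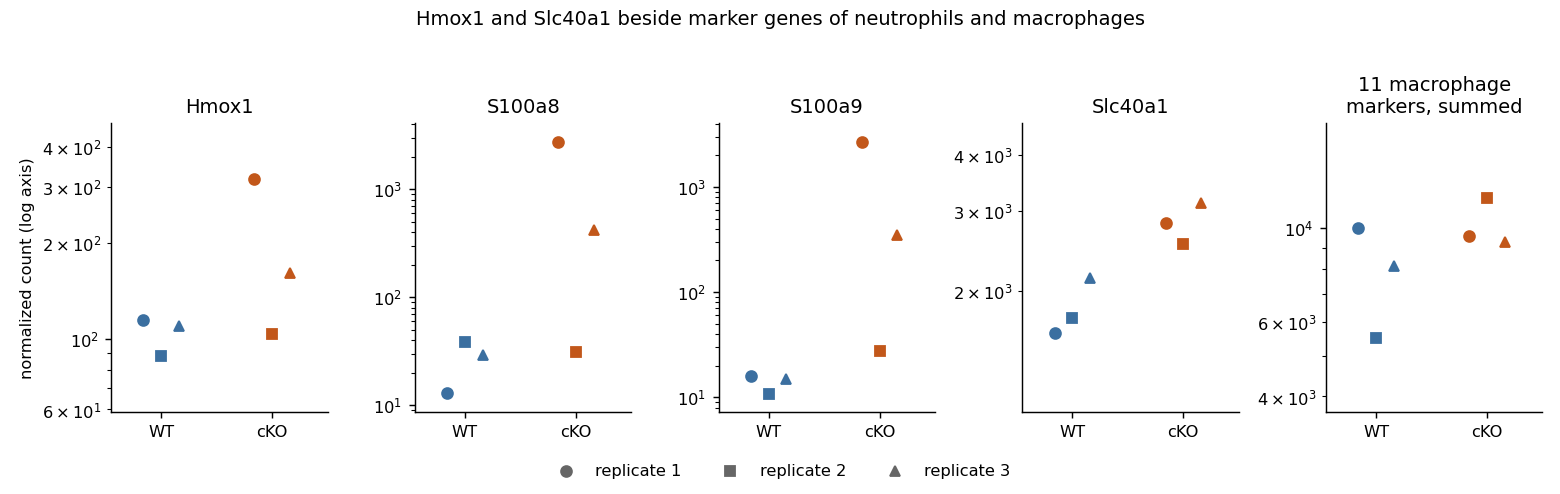
Normalized counts (log axes) of Hmox1 and Slc40a1 in each WT and cKO library beside the neutrophil genes S100a8 and S100a9 and the sum of 11 macrophage markers; symbols mark replicate numbers. S100a8 and S100a9 are far higher in cKO libraries 1 and 3 than in the other 4, and Hmox1 is highest in the same first cKO library.

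The 3 tested protein-coding genes whose pattern over the 6 libraries was most like that of Slc40a1 were Psme2, a proteasome activator subunit (root mean square difference of log2 values 0.078), Smpdl3a (0.10) and Chic1 (0.11), out of 13784 candidates and with each gene centred on its WT mean. For Heph they were Rest (0.032), a transcriptional repressor, Tor1aip2 (0.037) and Crcp (0.037). Likeness here means only that the values ran in parallel in these libraries.

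The ferritin chains were close to level between genotypes. Fth1 (ENSMUSG00000024661, listed at chr19:9982703-9985092, plus strand) stood at 17518, 17071 and 15700.2 normalized counts in cKO libraries 1 to 3 and at 16326, 15109 and 16594 in WT libraries 1 to 3. The groups overlapped, and the log2 fold change was 0.07 (SE 0.08, interval −0.12 to 0.26, adjusted p = 0.731, limma). Ftl1 (ENSMUSG00000050708, chr7:45457944-45459884, minus strand) stood at 5343, 5223 and 4896 in cKO and at 5181, 6247 and 5624 in WT, and overlapped too. Its log2 fold change was −0.14 (SE 0.09, interval −0.35 to 0.07, adjusted p = 0.507, limma). Both intervals lie within 0.35 of 0 on the log2 scale, so a larger change of either ferritin mRNA is outside what this fit allows at 95% confidence.

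Ferritin genes have near-identical processed copies that can share reads. Ftl1-ps1, named as an Ftl1 copy but listed as protein-coding, was at 94.4 ± 4.24 normalized counts in cKO and 108 ± 10.3 in WT (SD, n = 3 each), small beside Ftl1. Fth-ps2 and Ftl2-ps, both listed as processed pseudogenes, were at 3.6 or less in every library. How many reads the counting lost or moved between the copies was not tested.

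Ncoa4, the receptor that carries ferritin to the lysosome for iron release (ENSMUSG00000056234, chr14:32159865-32179855, plus strand), stood at 1076, 1201 and 1113 normalized counts in cKO and at 1059.7, 1188 and 1014 in WT. The groups overlapped nearly throughout, with a log2 fold change of 0.06 (SE 0.09, interval −0.15 to 0.27, adjusted p = 0.798, limma). Ireb2 (ENSMUSG00000032293, chr9:54863789-54912530, plus strand), which encodes iron regulatory protein 2, stood at 2000.5, 1593 and 1775 in cKO and at 1677, 1651 and 1689 in WT. The WT libraries were tightly spaced and sat inside the cKO range, with a log2 fold change of 0.09 (SE 0.10, interval −0.13 to 0.31, adjusted p = 0.677, limma). Iron regulatory protein 2 is controlled mainly by protein degradation, which these values do not measure.

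Hmox1, which encodes the stress-inducible heme oxygenase that frees iron from heme (ENSMUSG00000005413, chr8:75093621-75100589, plus strand), had the largest estimate of the 10 and the least even values. It stood at 317, 104 and 161 normalized counts in cKO libraries 1 to 3 and at 115, 88.2 and 109.8 in WT libraries 1 to 3. Libraries 1 and 3 of cKO lay above every WT library while cKO library 2 lay among them. The level was 1.68-fold higher in cKO (log2 fold change 0.75, SE 0.38, interval −0.15 to 1.65, adjusted p = 0.418, limma). Without cKO library 1 the log2 fold change was 0.32, and without cKO library 2 it was 1.12.

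The cKO libraries with high Hmox1 were also those with high neutrophil genes. S100a8, a calprotectin subunit of neutrophils and monocytes, was at 2708, 31.0 and 417 normalized counts in cKO libraries 1 to 3 and at 12.8, 38.7 and 29.0 in WT. S100a9, its partner, was at 2680.1, 27.6 and 348 in cKO and at 15.8, 10.8 and 15.0 in WT. Of 8 neutrophil markers tested 7 had estimates above 0, none at an adjusted p below 0.05 by limma and 3 higher (37.5%, beside 6.91% of all genes) and 1 lower (12.5%, beside 7.08%) at an unadjusted p below 0.05. The summed level of the list, 2994 to 9987 in cKO and 2975 to 3237 in WT, was carried in most libraries by Ly6g, which did not follow the others, and no listed marker was at 0 throughout. Erythroid markers, a sign of blood in the tissue, summed to 126 to 317 in cKO and 105 to 333 in WT and overlapped. High values in cKO library 1 were not confined to neutrophil genes. It also had the highest Col1a1 (7907) and the highest Pecam1 (1256), an endothelial marker, of all libraries, though not the highest Acta2 (2360). Nedd4l was lower in cKO libraries 1 and 3 (476 and 566) than in cKO library 2 (942). The part of infiltrating cells in the Hmox1 values was not tested.

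**Figure D3:**
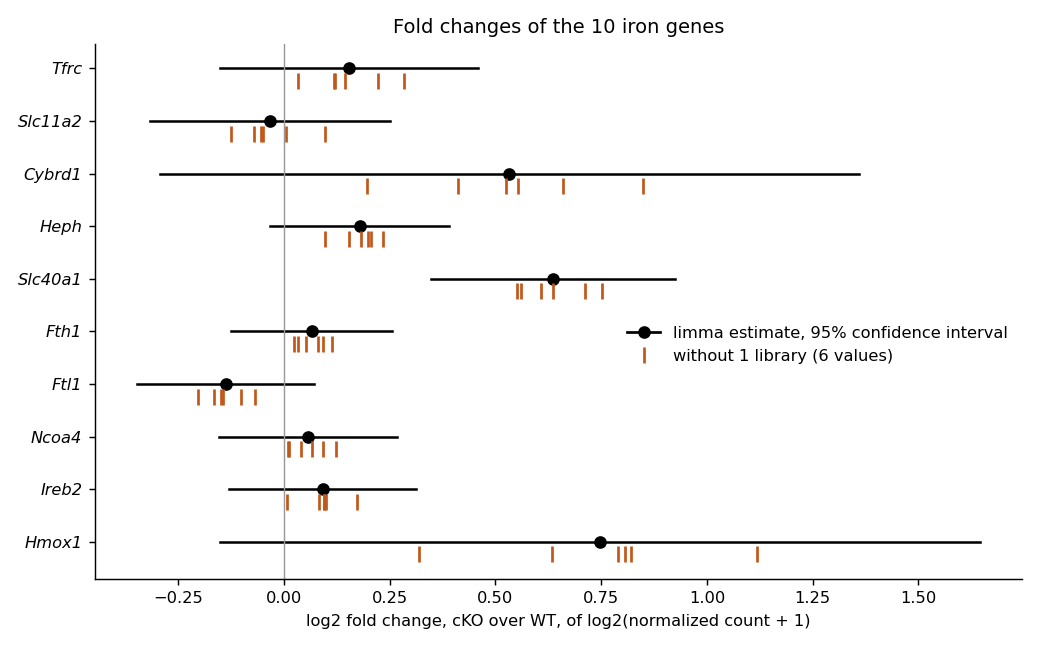
Log2 fold change (horizontal axis, cKO over WT) of each of the 10 iron genes with its 95% confidence interval from limma, and the 6 estimates with 1 library left out as ticks. The Slc40a1 interval, 0.35 to 0.93, is the one that lies apart from 0, and the ticks of Hmox1 spread from 0.32 to 1.12.

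Ratios of 2 genes within a library are free of the scaling between libraries. The log2 ratio of Tfrc to Fth1, which sets import against storage, was −1.67, −1.13 and −1.24 in cKO and −1.53, −1.22 and −1.56 in WT. It overlapped fully (difference 0.09, exact permutation test, two-sided, p = 0.9), and without cKO library 2 the difference was −0.019. The log2 ratio of Slc40a1 to Slc11a2, export against DMT1, was 1.78, 1.18 and 1.60 in cKO and 0.60, 0.84 and 1.11 in WT. Every cKO library lay above every WT library, by a mean of 0.67 on the log2 scale or 1.59-fold (exact permutation test, two-sided, p = 0.1). Without cKO library 2 the difference was 0.84. Alone, Slc11a2 had a log2 fold change of −0.03 and Slc40a1 of 0.64, so this ratio largely restates the Slc40a1 difference.

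The log2 ratio of Fth1 to Ftl1, heavy to light ferritin chain, was 1.71, 1.71 and 1.68 in cKO and 1.66, 1.27 and 1.56 in WT. The cKO libraries lay above the WT libraries here as well, by 0.20 or 1.15-fold (exact permutation test, two-sided, p = 0.1), although neither chain alone separated the groups. WT library 2 was lowest, and without it the difference was 0.092. With 3 libraries against 3, 0.1 is the smallest p that this test can give, so it could not pass 0.05. The 3 ratios were the only ones computed.

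**Figure D4:**
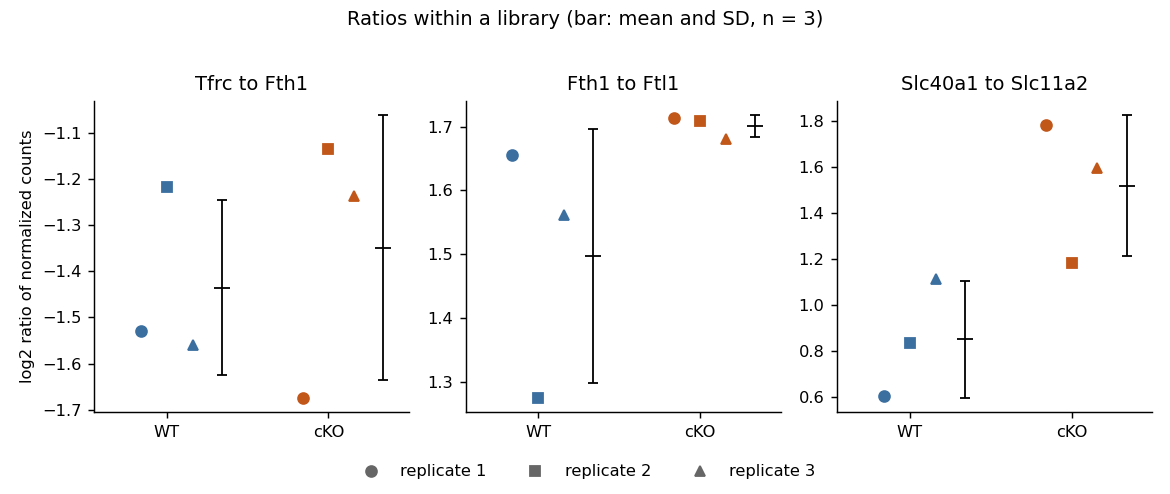
Log2 ratios of normalized counts within each library for Tfrc to Fth1, Fth1 to Ftl1 and Slc40a1 to Slc11a2, with the mean and SD of 3 libraries; axes do not start at 0 and differ between panels. The groups separate in the last 2 panels and overlap in the first.

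The wider iron pathway was read from 4 lists, of which 67 genes were tested. None of the 67 passed an adjusted p of 0.05 by limma. At an unadjusted p below 0.05, 5 were higher (7.46%, beside 6.91% of all genes) and 8 were lower (11.9%, beside 7.08%). In 5 genes every cKO library lay above every WT library (7.46%, beside 10.5%) and in 10 every one lay below (14.9%, beside 10.9%). The median log2 fold change was −0.04, with 24 genes above 0 and 43 below, beside 8160 above and 8086 below among all genes tested.

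Of 16 tested genes of iron and heme uptake, 11 had estimates above 0 and 5 below, 4 were higher (25%, beside 6.91% of all genes) and 0 lower (beside 7.08%) at an unadjusted p below 0.05, and the median log2 fold change was 0.16. The list holds Lcn2 (lipocalin 2), Ltf, an iron-binding protein of neutrophils, and Slc11a1, a phagocyte metal transporter. None of these passed an adjusted p of 0.05 by limma. Lcn2 stood at 952, 40.9 and 175 normalized counts in cKO and 39.5, 53.1 and 87.9 in WT, high in the same cKO libraries 1 and 3 as S100a8. Which cells carried the Lcn2 mRNA was not tested. Lrp1, the receptor that clears hemopexin-bound heme, averaged 4671 ± 106 normalized counts in cKO and 3822 ± 33.9 in WT (SD, n = 3 each), a log2 fold change of 0.29 (adjusted p = 0.211, limma). Hp, haptoglobin, which binds free hemoglobin, stood at 839, 27.6 and 98.0 in cKO libraries 1 to 3 and at 12.8, 5.40 and 5.99 in WT. All 3 cKO libraries lay above WT, and cKO library 1, which was also highest in S100a8, was far above the other 2. The log2 fold change was 3.97 (adjusted p = 0.301, limma), 2.64 without cKO library 1 and 5.08 without cKO library 2.

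Among 12 tested genes of iron regulation and export, 5 had estimates above 0 and 7 below, with 1 gene at an unadjusted p below 0.05 in each direction (8.33%, beside 6.91% and 7.08%) and a median log2 fold change of −0.03. Cp, ceruloplasmin, the soluble copper ferroxidase related to hephaestin, stood at 985, 274 and 313 normalized counts in cKO and at 196, 104 and 184 in WT. The groups did not overlap, and the log2 fold change was 1.49 (adjusted p = 0.331, limma), 0.91 without cKO library 1 and 1.83 without cKO library 2. Pcbp1, a cytosolic iron chaperone that loads ferritin, averaged 4908 ± 206 in cKO and 5639 ± 97.0 in WT (SD, n = 3 each), a log2 fold change of −0.20 (adjusted p = 0.31, limma).

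Of 14 tested genes of heme synthesis, export and breakdown, 3 had estimates above 0 and 11 below, with 0 higher and 3 lower (21.4%, beside 7.08% of all genes) at an unadjusted p below 0.05 and a median log2 fold change of −0.12. Alad, the second enzyme of heme synthesis, averaged 595 ± 9.08 normalized counts in cKO and 766 ± 17.9 in WT (SD, n = 3 each), a log2 fold change of −0.36 (adjusted p = 0.194, limma). Cpox, a later enzyme of the same route, averaged 709 ± 76.8 and 883 ± 58.8, a log2 fold change of −0.32 (adjusted p = 0.292, limma).

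Of 25 tested genes of mitochondrial iron and iron-sulfur clusters, 5 had estimates above 0 and 20 below, with 0 higher and 4 lower (16%, beside 7.08% of all genes) at an unadjusted p below 0.05 and a median log2 fold change of −0.09. Hspa9, the mitochondrial chaperone that passes on nascent clusters, averaged 4983 ± 371 normalized counts in cKO and 6062 ± 404 in WT (SD, n = 3 each), a log2 fold change of −0.28 (adjusted p = 0.28, limma). Fdx1, a mitochondrial ferredoxin, averaged 244 ± 13.9 and 346 ± 69.4, a log2 fold change of −0.49 (adjusted p = 0.288, limma). Of the 12 epithelial markers, 3 had estimates above 0 and 9 below, with 0 at an unadjusted p below 0.05 by limma and a median log2 fold change of −0.06. The part of epithelial content in the values of these lists was not tested.

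**Figure D5:**
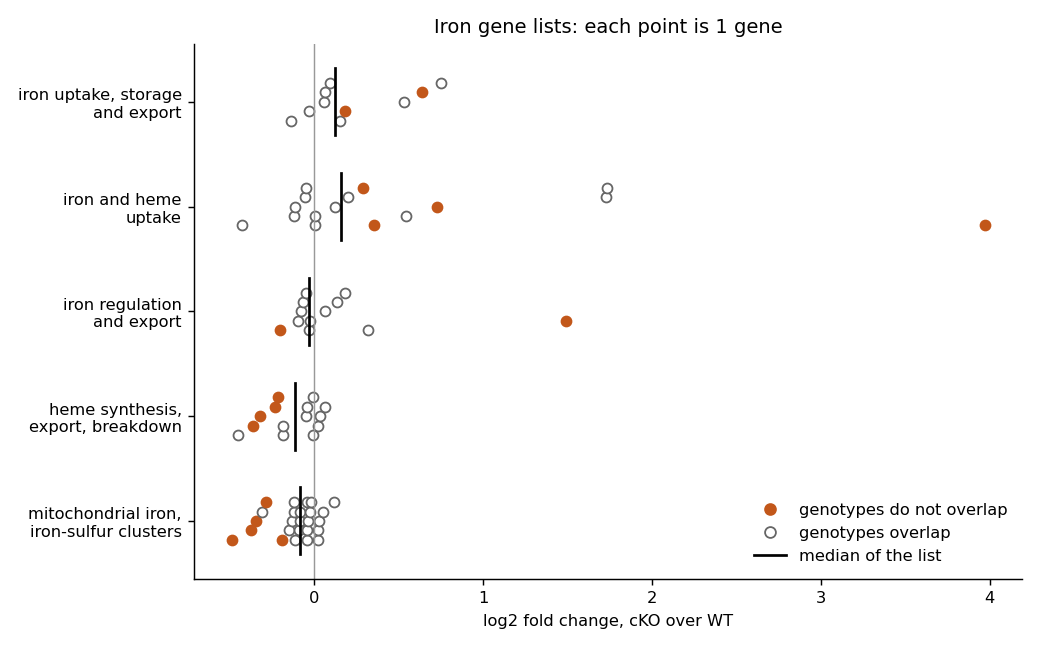
Log2 fold change (horizontal axis, cKO over WT) of each tested gene of the 10 members and of the 4 wider iron lists, 1 point a gene, with the median of each list as a line and filled points where the genotypes do not overlap. The uptake list has its median at 0.16 and the heme and mitochondrial lists at −0.12 and −0.09.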

How the data were processed

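Colon RNA was extracted with TRIzol and sequenced from libraries made with a NEBNext Ultra RNA kit. Per the labels, the authors aligned reads with HISAT2 (2.0.5) and counted them per gene with featureCounts (1.5.0-p3). Strand use in counting is not given in the sources used here. The deposited values are a signal, gene counts divided by a size factor for each library, called normalized counts here. The labels name a human build, but 97.0% of the listed gene coordinates are identical to GENCODE M21 (mouse, GRCm38), which was used. The deposited table also holds 3 columns of the authors' own comparison (a log2 fold change, a p-value and an adjusted p-value), which were not used, and the authors' mean of each genotype.

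Genes averaging 10 or more normalized counts across libraries were tested as log2(normalized count + 1) with limma 3.58.1 (trend and robust options, R 4.3.3), Benjamini-Hochberg adjusted over all 16246 genes. A log2 fold change is on that scale and understates the change of low genes. Intervals are 95% confidence intervals. Ratios were tested by exact permutation (Python 3.11.15, scipy 1.17.1). The fit was also run on simulated data with known changes, drawn independently for each gene and library. The simulated data hold no library that departs from its group as cKO library 2 did. The share of known changes recovered is not given here. The alternatives tried were other pseudocounts, no filter, other scalings, library weights, a replicate block and leaving out each library. The members and lists were chosen with earlier results of these data known. All 10 members were named, with the 2 genes of smallest p in each wider list, the 3 genes most like each of the 2 members of smallest p, ferritin copies, and Nedd4l. Lcn2, Ltf, Slc11a1 and marker genes quoted singly were chosen after their values were seen.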

Additional observations from a re-analysis of the deposited data

How the results depend on the processing

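Counts of genes past an adjusted p of 0.05 by limma depended on the setting. Among all genes, 0 higher and 0 lower became 7 and 23 without the filter on low values and 262 and 369 with array weights. Leaving out 1 library gave 0 to 70 higher and 0 to 52 lower, namely 2 and 22 without cKO library 1 and 70 and 52 without cKO library 2. Of the members, 1 was called higher (Slc40a1) with array weights and 0 in every other alternative. Of the wider lists, array weights called 2 higher (Lrp1, Steap2) and 4 lower (Alad, Hspa9, Cisd3, Cpox), and leaving out 1 library called 0 to 1 higher (Ltf, without cKO library 2). At an unadjusted p below 0.05, 1 to 3 members were higher and 0 to 1 lower over all alternatives. The Slc11a2 estimate reversed to 0.031 with array weights, to 0.0049 without WT library 1 and to 0.098 without cKO library 1, in a leave-one-out range of −0.13 to 0.098. That of Fth1 reversed to −0.013 with array weights. The difference in the log2 Tfrc to Fth1 ratio reversed to −0.019 without cKO library 2, in a leave-one-out range of −0.019 to 0.25. The causes were not tested. With 1 library left out, the log2 estimates ranged from 0.033 to 0.28 for Tfrc, 0.20 to 0.85 for Cybrd1, 0.096 to 0.23 for Heph, −0.20 to −0.068 for Ftl1, 0.0085 to 0.12 for Ncoa4 and 0.0083 to 0.17 for Ireb2. Estimates of the other 8 members kept their sign in every alternative. Other scalings moved the median of all genes by less than 0.1 on the log2 scale.

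The replicate block called 0 genes (smallest adjusted p 0.161) and gave 1204 higher and 1052 lower genes at an unadjusted p below 0.05. Same-numbered libraries did not deviate together (r = −0.03, −0.09 and −0.06), and 0 of 6 libraries correlated best with their own number, so the numbers were not read as pairs. Count tests on reads recovered from the steps were not run, although the values of all 6 libraries are whole multiples of a step. The step of WT library 3, 0.999, was too near 1 for the rule used to accept recovered reads. That is a limit of the rule, not of the values. With 3 libraries a genotype and gene-level values, small differences of low genes such as Cybrd1 and changes between isoforms were not detectable. The Nedd4l difference (log2 fold change −0.99) passed an adjusted p of 0.05 by limma only with array weights (0.0212) and without cKO library 2 (0.0131). A gene that did not pass may therefore still differ.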
